A study of Mus musculus with 14 samples.

Results

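The type 2 cytokine genes Il4, Il5 and Il13, the receptor chains Il4ra and Il13ra1, the signal transducer Stat6 and the transcription factor Gata3 were followed through the cells of 7 white nodules from cKO mice. These 7 genes of the 32285 measured were taken by symbol, and they were chosen with earlier results of these data known. Interleukin 4 (IL-4) and interleukin 13 (IL-13) are made by type 2 helper T cells, type 2 innate lymphoid cells, basophils and mast cells. IL-4 binds the IL-4 receptor alpha chain encoded by Il4ra together with either the common gamma chain or the IL-13 receptor alpha 1 chain, and Janus kinases bound to these chains then phosphorylate STAT6. GATA3 is the master transcription factor of type 2 T cells, IL-5 is the growth factor of eosinophils, and in B cells IL-4 is known for raising MHC class II, CD23 and switching to IgE and IgG1. In these nodules Il4 transcripts were read from expanded T cell clones, from other T-like cells and from rare basophil-like cells. Among the 5 B cell clones they came mostly from that of mouse 31. Erythroid-like cells of mouse 32 also held 25.3% of that library's Il4 UMIs, and the part of free RNA in this was not tested. Gata3 was near 0 in every B clone and at 0 UMIs in the basophil-like cells.

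The mice carried floxed Eif3e alleles and Cγ1Cre, with a Rosa26 YFP reporter described in the study's methods (termed cKO). Eif3e encodes one of the proteins of eIF3, a complex needed to start translation, and the Cre is driven from the Ighg1 locus, which is transcribed in activated B cells. Whole nodules were dissociated and dead cells removed, and droplet RNA and V(D)J libraries were made from every nodule, 1 of each. The 5 nodules with B cell receptor (BCR) libraries were those of mouse 27 (liver, 12 months), mouse 29 (lung, 12 months), mouse 31 (spleen, 13 months), mouse 33 (thymus, 16 months) and mouse 34 (lung and thymus, 9 months). The 2 nodules with T cell receptor (TCR) libraries came from mouse 30 (liver, 14 months) and mouse 32 (spleen, 12 months). No healthy tissue and no Cre-negative nodule was analysed here, so no value has a disease-free background. A figure legend of the study describes the sample of mouse 27 as a secondary tumour grown after transplantation, for which its methods used Rag2-/- recipients, and host and donor cells could not be told apart. Each nodule is 1 mouse, so receptor kind and organ cannot be told apart from the mouse, although liver and spleen each occur with both receptor kinds.

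The libraries held 19264039 to 123456962 UMIs (unique molecular identifiers, each counting 1 captured transcript), and 75503 cells passed the filters, with a median of 1364 UMIs per cell in mouse 30 and 5319 in mouse 33 as the extremes. Between 78 and 278 cell barcodes were shared by any pair of libraries. The targeted gene Eif3e was read at 169 to 243 CPM (the gene's UMIs per 1000000 UMIs of the summed cells) in the 5 B clones and at 146 and 142 CPM in the T clones of mice 30 and 32, without a Cre-negative level to set it against. Intervals of levels are exact 95% Poisson intervals and cover counting error only.

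Clones were taken from the V(D)J calls as all cells that shared the commonest heavy or beta chain or its commonest light or alpha partner. The T clone held 2107 cells in mouse 30 and 4868 in mouse 32, and bystander T cells, those with a TCR call outside the clone, numbered 388 and 433. B clones held 1782, 323, 3974, 1084 and 1416 cells in mice 27, 29, 31, 33 and 34. The T-like cells of the BCR mice (575, 4288, 852, 3612 and 930 cells) had no TCR library, so their clonality was not read. The CDR3 is the stretch of a receptor chain that identifies a clone, and it is shown for the 3 clones on which the Il4 results turn, read from the deposited contigs 5′ to 3′ with the first and last codon in capitals. Cells with the chain were counted among all V(D)J-called clone cells, 2117, 4915 and 3980 in mice 30, 32 and 31. The clone sizes beside them count only cells that passed the RNA filters.
T clone of mouse 30, TRBV1 and TRBJ2-1, in 1973 of its 2107 cells: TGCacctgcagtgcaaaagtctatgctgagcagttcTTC
T clone of mouse 32, TRBV26 and TRBJ2-5, in 4794 of its 4868 cells: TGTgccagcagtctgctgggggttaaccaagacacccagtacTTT
B clone of mouse 31, IGHV1-18 and IGHJ4, in 3278 of its 3974 cells: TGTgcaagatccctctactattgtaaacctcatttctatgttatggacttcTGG

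Il4 (ENSMUSG00000000869), Il13 (ENSMUSG00000020383) and Il5 (ENSMUSG00000036117) lie in a row on chromosome 11 in the RefSeq annotation of GRCm38.p6. Il4 spans chr11:53612460-53618665 and Il13 spans chr11:53631323-53634702, with 12657 bases between them. Il5 spans chr11:53720794-53725103, 86091 bases from Il13. Il4ra (ENSMUSG00000030748) lies on chromosome 7 at chr7:125552271-125579474, Il13ra1 (ENSMUSG00000017057) at chrX:36112108-36171262, Stat6 (ENSMUSG00000002147) at chr10:127642955-127660987 and Gata3 (ENSMUSG00000015619) at chr2:9857078-9887953. The 250 bases before the start of the 3 cytokine genes are shown because these neighbours were not read together in every population. Capitals mark either TTC and GAA with any 4 bases between them, in which STAT6 dimers can bind, or GATA with A or T before it and A or G after it, in which GATA factors can bind, on either strand.
Il4, chr11:53618666-53618915, minus strand: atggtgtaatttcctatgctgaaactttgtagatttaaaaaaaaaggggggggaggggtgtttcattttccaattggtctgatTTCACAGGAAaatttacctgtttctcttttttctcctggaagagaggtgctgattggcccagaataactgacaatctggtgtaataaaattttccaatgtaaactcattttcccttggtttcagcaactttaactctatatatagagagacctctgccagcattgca
Il13, chr11:53634703-53634952, minus strand: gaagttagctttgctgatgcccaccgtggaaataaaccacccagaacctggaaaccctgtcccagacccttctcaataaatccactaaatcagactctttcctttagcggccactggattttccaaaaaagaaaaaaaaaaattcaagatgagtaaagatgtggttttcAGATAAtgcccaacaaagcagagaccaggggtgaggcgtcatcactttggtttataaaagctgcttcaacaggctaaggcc
Il5, chr11:53720544-53720793, plus strand: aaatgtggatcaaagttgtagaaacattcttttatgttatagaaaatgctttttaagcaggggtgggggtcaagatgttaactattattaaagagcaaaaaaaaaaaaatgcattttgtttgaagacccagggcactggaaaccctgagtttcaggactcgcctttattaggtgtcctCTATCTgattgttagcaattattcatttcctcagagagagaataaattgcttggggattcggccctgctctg
The Il4 stretch held TTCACAGGAA at 167 bases before the start and none of the GATA letters. The RefSeq table holds another Il4 start further inside the gene, whose stretch at chr11:53617339-53617588 held TGATAG at 80 bases before it and no STAT6 letters. The Il13 stretch held AGATAA at 81 bases before its start, and the Il5 stretch held CTATCT, which is AGATAG on the other strand, at 72. Of 32841 promoters of the same length in the RefSeq table, 5.85% held the former and 26.5% the latter letters, so these matches are descriptions of the letters only.

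In each TCR nodule Il4 was higher in the basophil-like cells and in the T clone than in the other T cells. Il4 reached 229 CPM (216 to 242, 1240 UMIs) in the T clone of mouse 30 and 176 CPM (171 to 181, 4880 UMIs) in that of mouse 32, where it was 220 CPM in the 4462 clone cells that also clustered as T-like. Bystander T cells of the same nodules had 63.8 CPM (62 UMIs) and 84.1 CPM (135 UMIs), so the clone was the higher in both mice. In mouse 32, 33.7% of bystander cells and 0.431% of clone cells had a CD8 UMI and no Cd4 UMI. Among its cells with neither, the bystander cells had 162 CPM and the clone 155 CPM. In mouse 30 the clone was the higher among such cells (233 against 92.5 CPM). Among cells with a Cd4 UMI and no CD8 or Foxp3 UMI the clone was the higher in both mice. The values were 228 against 40.3 CPM in mouse 30 and 193 against 96.3 CPM in mouse 32. Il4 was therefore not limited to the expanded clones. T-like cells without a TCR call, whose clone membership is unknown, had 186 and 140 CPM. In the edgeR quasi-likelihood fit over summed counts, with mouse as a block, the difference between T clone and bystander T cells was 1.29 ± 0.30 (log2, SE, n = 2 mice, adjusted p = 0.251). It did not pass the threshold in a fit that called 20 of 11553 genes (0.173%, with 0.00866% higher and 0.164% lower in the clone) and left 1 residual degree of freedom. Without the filter on low counts Il4 passed (adjusted p = 0.0103), as did Il13 (0.0341) and Il4ra (0.0037), whereas DESeq2 called Il4ra alone of the 5 members tested (adjusted p = 0.0463). Leaving out mouse 32 gave an Il4 difference of 1.82 and leaving out mouse 30 gave 1.06, as values with no test.

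**Figure D1:**
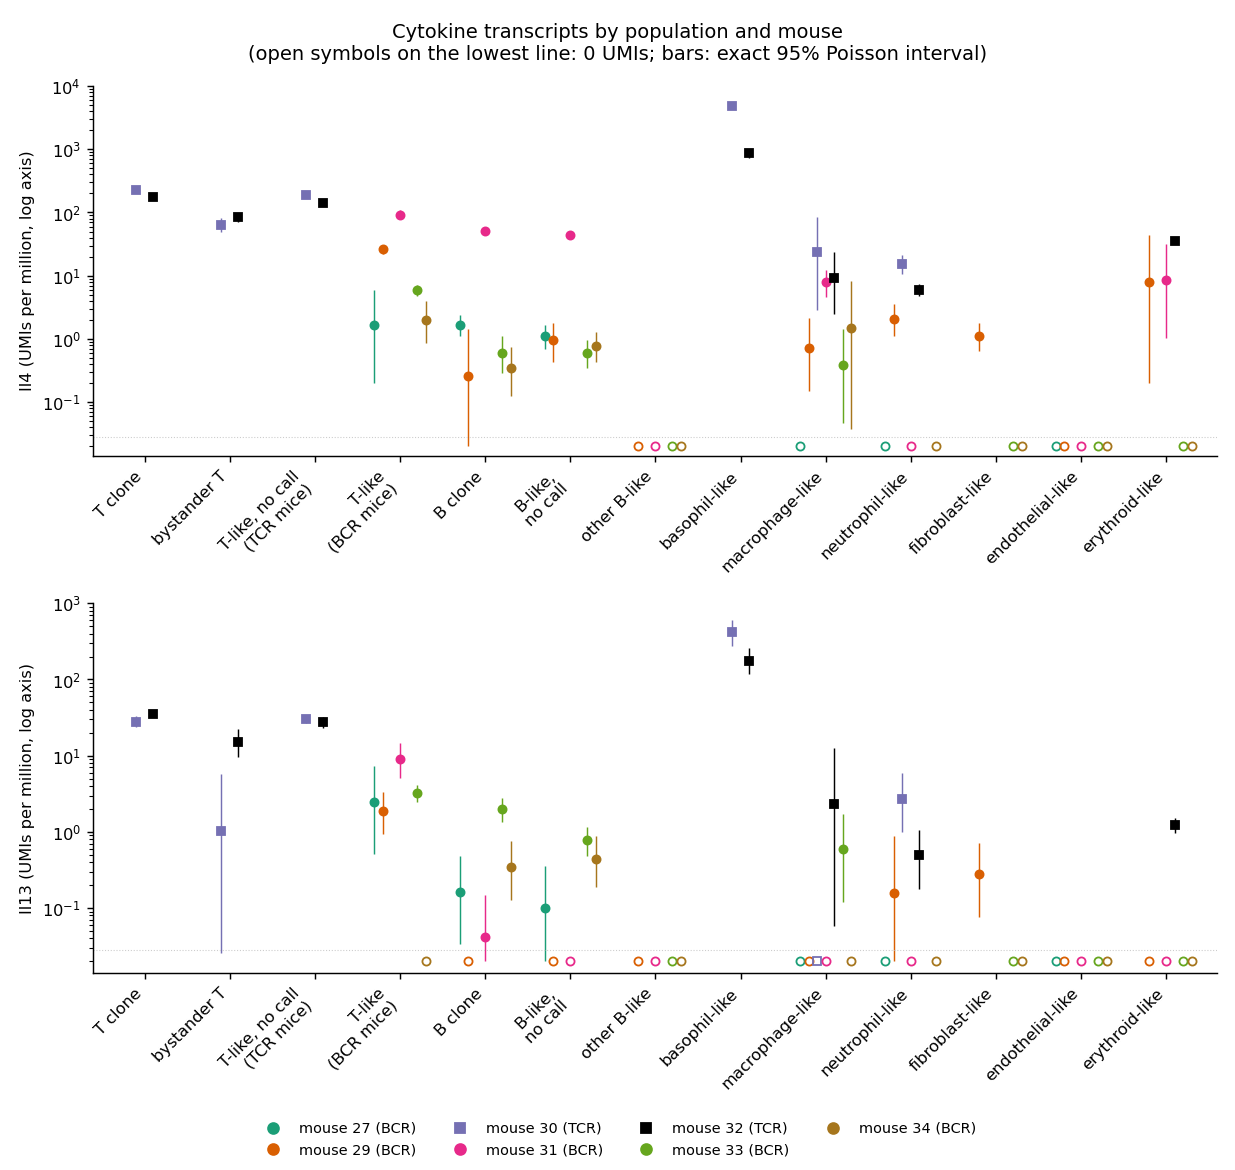
Levels of Il4 and Il13 (CPM, log axes) in each population of each mouse with at least 20 cells; squares are TCR mice, circles BCR mice, bars exact 95% Poisson intervals, and open symbols on the lowest line 0 UMIs. The basophil-like cells of mice 30 and 32 sit highest for Il4, followed by the T clones and the T-like cells without a TCR call, and the B clone of mouse 31 at 50.6 CPM stands apart from the other 4 B clones, at 0.257 to 1.65 CPM.

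The transcript was spread unevenly within each T clone. Sub-clusters were compared where they held at least 50 cells of a population. In mouse 30 the 12 such sub-clusters (1986 of the clone's cells) ranged from 44.2 to 723 CPM, and in mouse 32 the 11 such sub-clusters (4594 cells) ranged from 34.3 to 436 CPM. The smaller ones pooled were at 213 and 64.9 CPM. The 10% of cells with the most Il4 UMIs held 76.8% of the clone's Il4 in mouse 30 and 59.6% in mouse 32, and the highest single cells held 49 and 32 UMIs. At a fixed depth of 1000 UMIs per cell, 14.1% and 14.0% of clone cells had an Il4 UMI, against 4.32% and 6.98% of bystander cells (103, 21, 18 and 3 shallower cells left out). Before thinning, those shares were 23.3%, 40.4%, 8.76% and 14.8%, at median depths of 1992, 3805, 1947.5 and 3337 UMIs. Fibroblast-like cells of mouse 29, which should lack the gene, had a thinned share of 0.0726%, and neutrophil-like cells of the TCR mice had 15.2 and 5.98 CPM. Endothelial-like cells had 0 UMIs in each of the 5 BCR mice, which allows up to 2.46 CPM in the most deeply sampled of them.

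Il13 followed the T clones and basophil-like cells, at lower CPM than Il4. The T clone had 28.0 CPM (152 UMIs) in mouse 30 and 35.7 CPM (990 UMIs) in mouse 32. Bystander T cells had 1.03 CPM from 1 UMI and 14.96 CPM from 24 UMIs, so the clone was the higher in both nodules as a whole. Among cells of mouse 32 with a Cd4 UMI, Il13 was at 41.3 CPM in bystander cells (9 UMIs) and at 40.8 CPM in the clone. The fitted difference was 2.00 ± 0.71 (log2, SE, edgeR adjusted p = 0.464, n = 2 mice). It was 3.84 without mouse 32 and 1.203 without mouse 30, as values with no test. Clone cells with an Il4 UMI also had an Il13 UMI at 1000 UMIs per cell in 7.77% of 283 cells in mouse 30 and in 5.89% of 679 cells in mouse 32, against 2.38% and 2.57% of the clone cells without one. Il5, by contrast, was read in the T clone of mouse 32 (2.45 CPM, 68 UMIs) and at 0 UMIs in that of mouse 30, out of 115 Il5 UMIs in all cells.

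Gata3 did not separate clone from bystander. It had 228 and 76.9 CPM in the T clones of mice 30 and 32, and 174 and 89.1 CPM in the bystander T cells. The clone was the higher in mouse 30 and the lower in mouse 32, and the fitted difference was -0.06 ± 0.27 (log2, SE, edgeR adjusted p = 0.974). Stat6 differed by -0.25 ± 0.29 (adjusted p = 0.871). Among clone cells, 20.5% of those with and 18.2% of those without an Il4 UMI had a Gata3 UMI in mouse 30, and 9.13% and 8.42% did in mouse 32, all at 1000 UMIs per cell. Other cytokine genes of the same clones were read beside Il4. Areg, an epidermal growth factor family ligand, had 280 and 153 CPM in the T clones of mice 30 and 32, and Il21, the follicular helper T cell cytokine, had 76.0 and 24.7 CPM. Ifng, the type 1 cytokine, had 12.0 and 219 CPM in the clones and 502 and 301 CPM in the bystander cells. None of the 49 genes of the type 2 pathway list that were tested passed between clone and bystander (median log2 difference -0.24, against 0.04 over all genes), at an edgeR adjusted p below 0.05.

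Il4 in the T-like cells of the BCR nodules ranged widely between mice. Their Il4 levels were 1.65, 26.4, 92.1, 5.93 and 1.99 CPM in mice 27, 29, 31, 33 and 34, from 2, 156, 153, 107 and 8 UMIs. Mouse 31 therefore lay above the bystander T cells of both TCR mice (63.8 and 84.1 CPM). Mouse 29 stood between those cells and the other BCR mice. Both T clones lay above all 5 values of the BCR mice. Il13 was at 2.48, 1.86, 9.03, 3.21 and 0 CPM in the same order, also below both T clones. The fit of T clones against these cells gave 2.91 ± 1.17 for Il4 (log2, SE, edgeR adjusted p = 0.462, n = 2 and 5 mice) and 3.23 ± 0.90 for Il13 (adjusted p = 0.258). Neither passed, in a comparison that called 32 of 12911 genes (0.248%, with 0.0697% higher and 0.178% lower in the T clones). Without overlap and higher in the first group, as Il4 and Il13 were, stood 10.7% of all genes tested, and 4.51% were lower without overlap (15.2% in all). Il13 passed with DESeq2 (adjusted p = 0.0418), and without the filter on low counts Il13 (0.00598) and Il4 (0.0316) both passed.

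The remaining members overlapped between T clones and the T-like cells of BCR mice. Gata3 in the latter was 33.1, 232, 172, 34.9 and 39.9 CPM, which spanned the level of both clones (0.43 ± 0.84, log2, SE, edgeR adjusted p = 0.919). Il4ra (-1.12 ± 0.43), Il13ra1 (-1.83 ± 0.95), Stat6 (-0.04 ± 0.26) and Il5 (0.60 ± 1.83) did not pass either, at adjusted p of 0.435, 0.598, 0.983 and 0.956. T-like cells outside the clones were also set between TCR and BCR mice, a comparison that shares the BCR mice with the one before and the bystander cells with the first. It called 0 of 10216 genes (0%) with edgeR, 337 at an unadjusted p below 0.05 and 24 with DESeq2. Il4 differed by 1.62 ± 1.19 and Il13 by 1.47 ± 1.22 (log2, SE, adjusted p = 0.99 for each). Il4ra (0.93 ± 0.45), Gata3 (0.35 ± 0.80) and Stat6 (0.21 ± 0.27) had the same adjusted p, and none of the 5 members tested was free of overlap (7.64% of all genes were, 3.5% as higher and 4.13% as lower in TCR mice).

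Within the T-like cells of BCR mice Il4 was split by Cd4 and CD8 (Cd8a or Cd8b1) UMIs, cuts that are ranges and not cell types. In mouse 29 cells with a Cd4 UMI had 32.4 CPM and cells with a CD8 UMI 3.54 CPM, and in mouse 31 the values were 77.1 and 4.26 CPM. In mouse 33 they were 6.96 and 0.12 CPM. Most Il4 UMIs lay in cells with neither, 122 of 156 in mouse 29 (29.1 CPM), 105 of 153 in mouse 31 (106 CPM) and 70 of 107 in mouse 33 (16.2 CPM). Such cells were 77.8%, 64.6% and 37.9% of the T-like cells of mice 29, 31 and 33. In mice 29 and 31 their share of the Il4 UMIs was therefore near their share of the cells. The 49 cells of mouse 31 with a Foxp3 UMI, the regulatory T cell factor, had 230 CPM from 20 UMIs. A single T-like cell of that mouse held up to 15 Il4 UMIs, so few cells may carry this value. The 64 cells of mouse 29 and the 37 cells of mouse 34 with a Foxp3 UMI had 0 Il4 UMIs. Mice 27 and 34 held too few Il4 UMIs to be split by Cd4 and CD8 UMIs. In mouse 33 a sub-cluster of 422 cells had 70.1 CPM of Il4, with 42.0 CPM of Il13 and 217 CPM of Gata3. The other sub-clusters of at least 50 cells lay at 0 to 2.46 CPM, and the 258 cells of smaller sub-clusters pooled had 33.97 CPM of Il4 from 42 UMIs. In mouse 31 the 4 sub-clusters of at least 50 cells (582 of 852 cells) were at 5.87, 8.43, 129 and 137 CPM, and the remaining 270 cells pooled at 103 CPM.

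A cluster in the lung nodule of mouse 29 led by Il1rl1, which encodes the IL-33 receptor, kept no cell type name under the marker rule. Its 373 cells had 35.2 CPM of Il4 (20 UMIs), 42.2 CPM of Il13 (24 UMIs) and 22.9 CPM of Il5 (13 UMIs). They held 60% of the 40 Il13 UMIs of that library. In the same cells Gata3 was at 438 CPM and Il4ra at 88.0 CPM. This Gata3 level was above both T clones and the T-like populations taken whole. Sub-clusters of T-like cells in the same nodule came near it, at 423 CPM (625 cells) and 405 CPM (69 cells). The first of these also had 31.5 CPM of Il4 and 16.3 CPM of Il5. The cluster led by Il1rl1 was built without the 7 genes, so their values did not choose it.

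Basophil-like cells were rare and carried the densest Il4 signal. Basophils are granulocytes that release IL-4 on IgE crosslinking, and Mcpt8 encodes a protease particular to them in mice. A sub-cluster was named basophil-like where Mcpt8 was among its 10 leading genes, a rule set after the clusters were seen, and 24 cells in mouse 30 (0.229% of cells) and 23 in mouse 32 (0.172%) met it. Mice 27 and 29 had 1 such cell each and mice 31, 33 and 34 had none. All 8 basophil markers were detected in both, with Mcpt8 at 1722 and 3503 CPM and Hdc, the histamine-forming enzyme, at 9009 and 6424 CPM. Il4 reached 4809 CPM in mouse 30 (324 UMIs, 70.8% of cells) and 860 CPM in mouse 32 (136 UMIs, 56.5% of cells). Il13 was at 416 and 177 CPM, from 28 UMIs in each mouse. Gata3 had 0 UMIs in both, and Il5 had 0 UMIs in both. The 2 sums held 67380 and 158163 UMIs of all genes. That is too few to read Il5 even at its highest level in T-like cells of BCR mice, 3.39 CPM.

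Against the bystander T cells of the same 2 nodules, Il4 was higher by 5.06 ± 0.72 (log2, SE, edgeR adjusted p = 8.83e-11) and Il13 by 5.31 ± 0.60 (adjusted p = 1.34e-16), in both mice. Gata3 was lower (adjusted p = 1.35e-05), and since it had no UMI in any basophil-like sum its fitted fold is no bound. This fit called 892 of 6538 genes (13.6%), 8.32% as higher and 5.32% as lower. Like that of T clone against bystander T cells, it left 1 residual degree of freedom. Its 2 basophil-like sums differed widely in Il4, at 4809 and 860 CPM. Il4ra (-3.40 ± 1.33, adjusted p = 0.0694) and Stat6 (0.24 ± 0.67, adjusted p = 0.905) did not pass, with 1 Il4ra UMI and 14.8 and 82.2 CPM of Stat6 in the basophil-like cells. These sums rest on the 24 and 23 cells above. Leaving out mouse 30 gave 3.34 for Il4 and 3.48 for Il13, and leaving out mouse 32 gave 6.21 and 7.68, as values with no test. When cells were classed by marker UMIs without clusters, the basophil class grew to 1306, 224 and 820 cells in mice 29, 30 and 32, and the Il4 difference turned to -1.19 (adjusted p = 0.582) and that of Il1rl1 to -1.03, so the Il4 call rests on the cluster-based class, and Il13 was then too low to be tested. Of the 40 pathway genes tested, 6 were higher and 10 lower (median log2 difference -0.72, against -0.22 over all genes). Beside Il4 and Il13 the higher ones were Csf2rb (9.02), the receptor chain shared by IL-3, IL-5 and GM-CSF, Il1rl1 (4.36), H2-Eb1 (4.17) and Ptpn6 (1.72). Among the lower, Ifng, Tbx21 and Irf4 had 0 UMIs in the basophil-like cells of both mice, so that their fitted folds are no bounds either, and the others were Maf (-6.49), Il10 (-4.74), Il21r (-4.38), Bhlhe40 (-3.84), Areg (-2.47) and Batf (-2.43). With DESeq2, H2-Eb1, Ptpn6, Tbx21, Irf4, Il21r, Areg and Batf did not pass (adjusted p from 0.0526 to 0.635).

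The nodule's Il4 UMIs were also divided among populations. T-like and T clone cells held 88.3% and 67.7% of them in the nodules of mice 30 and 32. For mice 27, 29, 31, 33 and 34 their shares were 2.78%, 67.5%, 4.28%, 77.0% and 21.6%. The mean share was 78.0% in TCR and 34.6% ± 35.3 (SD, n = 5) in BCR mice, a difference of 43.3 percentage points (exact permutation test over 21 splits, two-sided, p = 0.238, smallest possible 0.0476). Mouse 33 fell within the range of the TCR mice and mouse 29 just below it. The T clone alone held 37.0% in mouse 30 and 56.7% in mouse 32. Basophil-like cells held 9.67% and 1.58% of Il4 UMIs in the TCR mice and 18.1% in mouse 27, where 1 cell carried 13 of the library's 72 UMIs. The mean difference in that share was 2.01 points (exact permutation test, p = 0.81), and 5.62 points without mouse 27 (p = 0.0667, the smallest the 15 splits allow). With classes by marker UMIs the T share differed by 47.7 points (exact p = 0.0476) and the basophil share by 4.07 points (exact p = 0.0476).

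**Figure D2:**
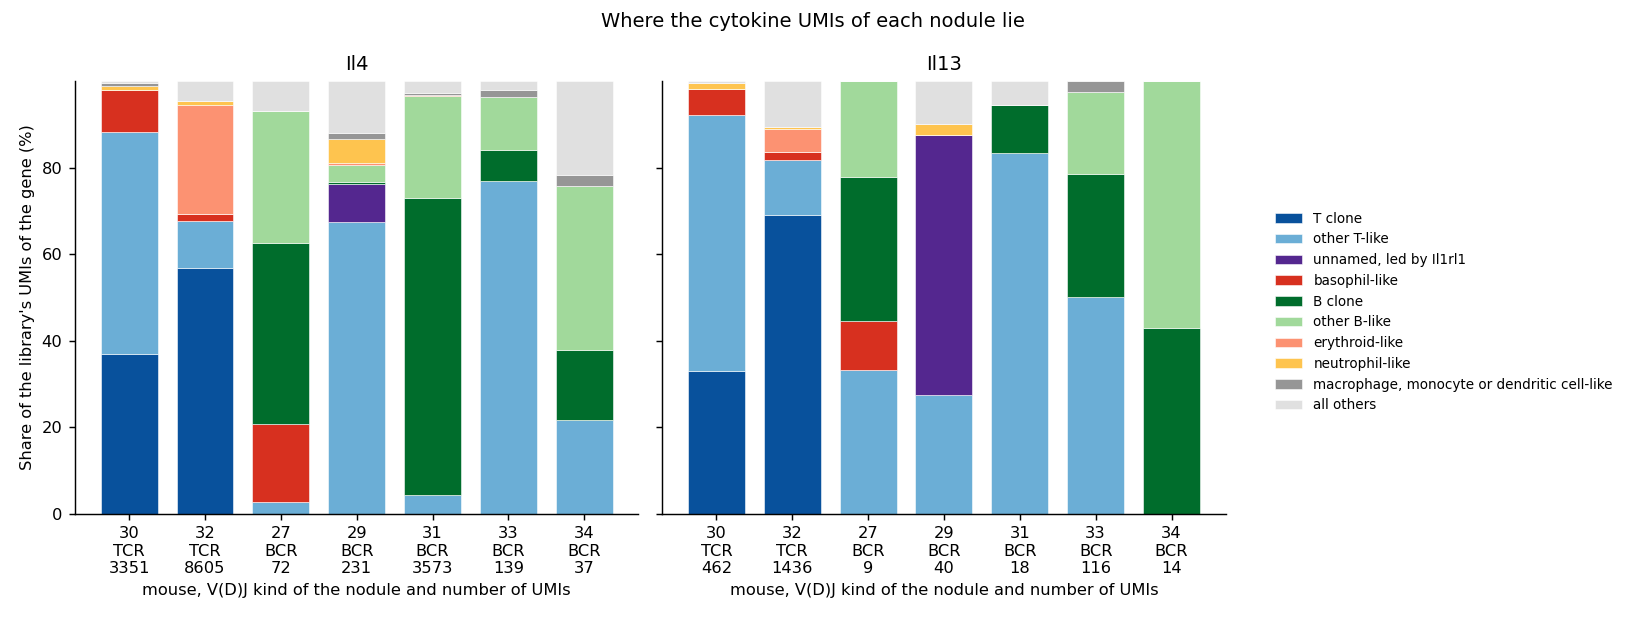
Share (%) of each library's Il4 and Il13 UMIs by population, 1 bar per mouse with the number of UMIs under it. T clone and other T-like cells fill most of the Il4 bars of mice 30, 32, 29 and 33, the B clone fills 68.8% of that of mouse 31, and erythroid-like cells fill 25.3% of that of mouse 32.

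In mouse 32, cells outside the lymphoid classes also held Il4. Its 3357 erythroid-like cells had 35.0 CPM (2173 UMIs, 25.3% of the library's Il4), and 523 unnamed cells with basophil markers but without Mcpt8 among their leading genes had 34.7 CPM of Il4 and 15.5 CPM of Il13. The erythroid-like cells held 10.1 Il4 UMIs per Cd3e UMI, against 0.497 in the T clone of that library. The part of free RNA in these values was not tested further.

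The B clone of the spleen nodule of mouse 31 held Il4 at a level seen in no other B clone. Il4 was at 1.65, 0.257, 50.6, 0.602 and 0.345 CPM in the B clones of mice 27, 29, 31, 33 and 34, from 2458 UMIs in mouse 31. A single mouse therefore stood far above the other 4. B-like cells without a BCR call were likewise highest in mouse 31, with 43.3 CPM in mouse 31 and 0.599 to 1.10 CPM in the other 4. Together the B clone and these cells held 68.8% and 23.6% of the library's Il4 UMIs, against 4.28% in its T-like cells. In 37.7% of the clone's cells at least 1 Il4 UMI was read, which became 4.66% at 1000 UMIs per cell. Macrophage-like cells of that nodule gave 7.91 CPM and a thinned share of 1.77%. Other B-like cells, those with another BCR call, were at 0 UMIs in all 4 mice that had them. These sums held 24 to 41 cells and 139226 to 253390 UMIs of all genes. That is too few to read a level like that of the clones in mice 29, 33 and 34. In mouse 31 the 41 such cells held 139226 UMIs of all genes and 0 of Il4, beside a clone at 50.6 CPM.

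Il4 in this clone was as high in cells without T cell transcripts as in all of its cells. Clone cells with no Cd3d, Cd3e or Cd3g UMI (3897 cells) had 50.5 CPM of Il4, and the 77 cells with one had 57.3 CPM. The level was 50.5 CPM without doublet-like cells and 50.5 CPM in clone cells of the B-like classes alone. These cuts kept 3946 and 3905 of the 3974 cells, so levels near the 50.6 CPM of the whole clone follow from the cuts themselves. The clone held 63.0 Il4 UMIs per Cd3e UMI, against 0.233 in the T-like cells of the same nodule. Of 8 T cell markers, 7 were at or below 1.37% of their T-like level, and the eighth, Cd28, was at 118 CPM or 38.7% of it. Summed, the markers came to 129 CPM against 2888 CPM in the T-like cells, and Cd3e, at 0.803 against 395 CPM, was near 0. Gata3 was at 0.432 CPM and Il13 at 0.0412 CPM, so neither the locus neighbour nor the transcription factor accompanied Il4. At 1000 UMIs per cell, 185 of 3974 clone cells had an Il4 UMI and 0 of these had one of Il13, Gata3, Cd3e or Cd4. Clone cells without an Il4 UMI had one in 0.0264%, 0.0528%, 0.0792% and 0.0264% of cases, in that order. Such shares are too low for the 0 among 185 cells to tell cells with and without Il4 apart. The 13 sub-clusters with at least 50 cells of the clone (3599 cells) had 25.6 to 98.0 CPM and the remaining 375 cells pooled 44.2 CPM. The 10% of cells with the most Il4 UMIs held 49.96% of the clone's Il4.

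**Figure D3:**
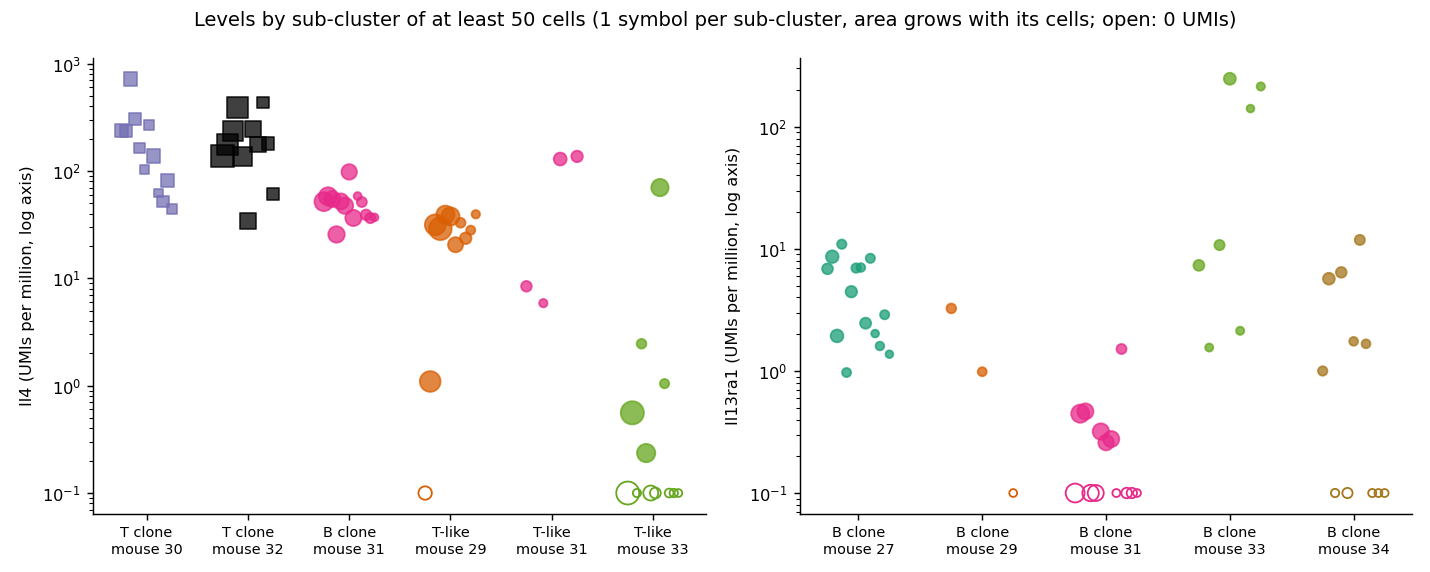
Il4 in sub-clusters of the T clones, of the B clone of mouse 31 and of T-like cells, and Il13ra1 in sub-clusters of the 5 B clones (CPM, log axes; 1 symbol per sub-cluster of at least 50 cells, area grows with its cells, open symbols are 0 UMIs). Il4 of the B clone of mouse 31 stays within 25.6 to 98.0 CPM, while Il13ra1 of the B clone of mouse 33 ranges from 1.55 to 247 CPM over the 7 sub-clusters shown, which hold 686 of its 1084 cells.

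On the receiving side, the same B clone also held the most Il4ra. Il4ra was at 7.10, 9.49, 74.6, 14.1 and 5.06 CPM in the B clones of mice 27, 29, 31, 33 and 34, and at 29.8, 31.7, 27.7, 25.7 and 14.0 CPM in the T-like cells of the same nodules. The B clone was the lower in 4 of 5 mice and the higher in mouse 31. The mean log2 ratio of B clone over T-like cells was -0.94 ± 1.397 (SD, n = 5, exact sign-flip permutation test over 32 patterns, p = 0.188, smallest possible 0.0625). Without mouse 31 it was -1.53 (exact p = 0.125, the smallest possible there). In the edgeR fit with mouse as a block Il4ra differed by -0.94 ± 0.54 (adjusted p = 0.228), and without mouse 31 by -1.43 (adjusted p = 0.0226), which passed. B-like cells without a BCR call in mouse 31 had 73.4 CPM, against 4.44 to 16.3 CPM in the other 4 mice. Cells of this clone with an Il4 UMI at 1000 UMIs had an Il4ra UMI in 4.86% of cases, and those without in 7.34%.

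**Figure D4:**
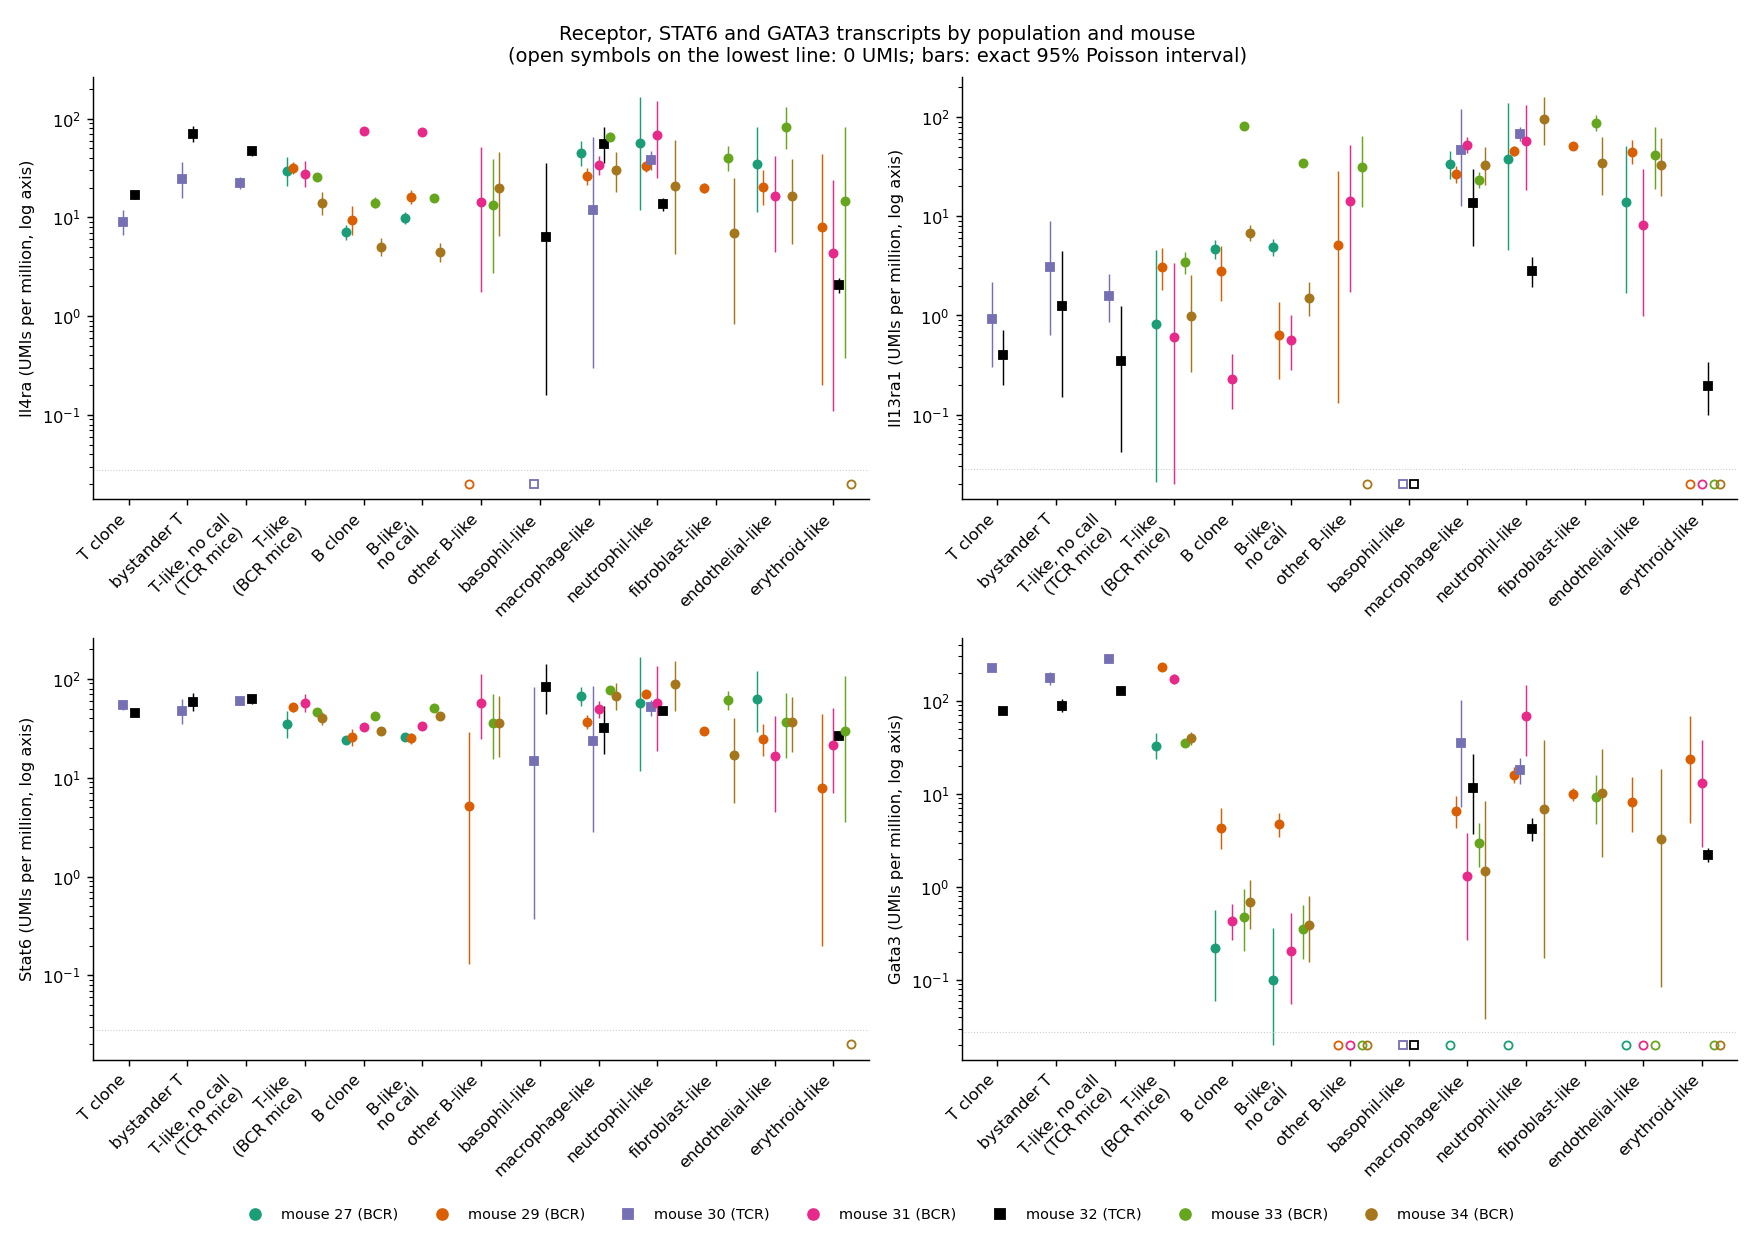
Levels of Il4ra, Il13ra1, Stat6 and Gata3 (CPM, log axes) by population and mouse, with symbols and bars as for the cytokines and open symbols at 0 UMIs. Stat6 lies between 24.3 and 58.6 CPM in B clones, T clones, bystander T cells and T-like cells of BCR mice, Il4ra of the B clone of mouse 31 (74.6 CPM) and Il13ra1 of the B clone of mouse 33 (81.5 CPM) stand apart among B clones, and Gata3 is near the bottom in all 5 B clones.

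In the TCR nodules the clone carried the least Il4ra among T cells. The T clones had 9.04 and 16.8 CPM in mice 30 and 32, the bystander T cells 24.7 and 70.4 CPM, and the T-like cells without a TCR call 22.2 and 47.3 CPM. The clone was the lower in both mice, by -1.95 ± 0.33 (log2, SE, edgeR adjusted p = 0.15, which did not pass). Macrophage-like cells, in which IL-4 drives alternative activation, had 11.7 CPM of Il4ra in mouse 30 and 26.0 to 65.9 CPM in the other 6. The value of mouse 30 rests on 29 cells with 85122 UMIs of all genes, too few to set it apart from the others. Their genes known to respond to IL-4 varied widely among mice, with Arg1 from 8.79 CPM in mouse 31 to 515 CPM in mouse 27, Chil3 from 118 CPM in mouse 33 to 2134 CPM in mouse 29, and Ccl24 from 0.879 CPM in mouse 31 to 557 CPM in mouse 32.

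Il13ra1, the second chain of the type II receptor, was highest among the B and T clones in the B clone of mouse 33. It was at 4.68, 2.82, 0.227, 81.5 and 6.84 CPM in the B clones of mice 27, 29, 31, 33 and 34, and at 0.602 to 3.44 CPM in the T-like cells beside them. The thymus nodule of mouse 33 therefore stood apart, from 1353 UMIs. Within that clone the 7 sub-clusters of at least 50 cells (686 of 1084 cells) had 1.55, 2.13, 7.32, 10.7, 141, 214 and 247 CPM, and the remaining 398 cells pooled had 23.7 CPM. B-like cells of the same nodule had 34.6 CPM without a BCR call and 31.1 CPM (7 UMIs) with another one. The T clones were at 0.922 and 0.397 CPM. Fibroblast-like cells had 34.4 to 87.5 CPM and macrophage-like cells 13.7 to 52.7 CPM, where the receptor is known to bind IL-13. The B clone and T-like cells differed by 2.40 ± 0.90 (log2, SE, edgeR adjusted p = 0.0845), which passed without mouse 29 (3.57, adjusted p = 0.024) and without the filter on low counts (2.55, adjusted p = 0.0204).

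Stat6 was read at 24.3, 25.7, 32.6, 42.3 and 29.7 CPM in the B clones and at 34.7, 51.5, 57.8, 46.4 and 40.1 CPM in the T-like cells of mice 27, 29, 31, 33 and 34. The B clone was the lower in each of the 5 mice, although the groups overlapped and the fit did not pass (-0.53 ± 0.20, log2, SE, edgeR adjusted p = 0.0822). T clones had 54.2 and 45.3 CPM and bystander T cells 47.4 and 58.6 CPM.

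Gata3 was the only member to pass between B clones and T-like cells. The B clones had 0.220, 4.36, 0.432, 0.482 and 0.690 CPM in mice 27, 29, 31, 33 and 34, against 33.1 to 232 CPM in the T-like cells, with no overlap. The difference was -6.63 ± 0.52 (log2, SE, edgeR adjusted p = 0.000541, lower in 5 of 5 mice). This fit called 28.6% of 12385 genes, 15.5% of them as lower in the B clone, and 13.2% as higher, and 11.3% of genes were lower and 6.02% higher without overlap (17.3% in all). Il4 differed by -2.33 ± 0.77 (adjusted p = 0.0605) and Il13 by -2.78 ± 1.41 (adjusted p = 0.178). Il4 passed with DESeq2 (0.00448), without the filter (0.0385) and with classes by marker UMIs (0.0425), and Il13 with DESeq2 (0.043). Against other B-like cells of the same nodules (24 to 41 cells in each of 4 mice), Il4ra (0.44 ± 0.77), Stat6 (0.05 ± 0.41) and Il13ra1 (0.45 ± 1.10) did not pass (edgeR adjusted p = 0.866, 0.981 and 0.912) in a fit that called 6 of 9234 genes (0.065%, with 0.0217% higher and 0.0433% lower in the clone).

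Of 52 list genes tested in that comparison, 11 were higher and 25 lower in the B clone (median log2 difference -1.50, against 0.05 over all genes). By role, 9 of 10 tested targets of the receptor in B cells were higher and 0 lower, against 0 higher and 5 lower of 7 cytokines, 0 and 3 of 9 receptors, 1 and 8 of 12 kinases and signalling genes, and 1 and 9 of 13 transcription factors. The higher targets included the MHC class II genes H2-Aa (3.84), H2-Ab1 (3.83) and H2-Eb1 (3.70), the IgE constant region Ighe (3.83), the invariant chain Cd74 (3.43) and Fcer2a (3.26), which encodes CD23. Many of these targets are B cell genes that T cells do not express, so lineage and receptor signalling cannot be told apart in this comparison. The lower genes were led by Il17a (-7.25), Areg (-7.10), Ifng (-6.87), Maf (-6.27), Cish (-6.03), Il17rb (-5.70), Tbx21 (-5.12), Il21 (-4.54), Socs3 (-4.46), Rora (-4.27), Il10 (-3.75) and Jak2 (-3.45).

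Among the B clones the targets of the receptor did not all follow Il4ra. Fcer2a was at 34.5, 5.64, 150, 70.0 and 30.3 CPM in mice 27, 29, 31, 33 and 34, highest in mouse 31. Ighe was at 444, 180, 212, 128 and 120 CPM, highest in mouse 27, and Il4i1, an amino acid oxidase induced by IL-4, was at 81.5, 8.46, 58.4, 32.3 and 41.0 CPM. H2-Aa was at 2719, 227, 2371, 1961 and 3630 CPM, highest in mouse 34 and lowest in mouse 29. Cd86 was at 69.3, 108, 137, 202 and 157 CPM. Ighg1 had 0 CPM in 4 of the 5 B clones and 0.0206 CPM in mouse 31, out of 40 UMIs in all cells.

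The genes whose levels were most alike to each member were ranked by Pearson r of log2(CPM + 10) over 52 sums of 17 populations, given as descriptions since these sums share libraries and depth. Il13 had Hormad2 (0.803) and Il4 (0.769) as its closest, and Il4 had Jakmip2 (0.815). Gata3 was closest to Gm27162 (0.946), Skap1 (0.934), Gm16008 (0.929) and Ccr8 (0.926). Il4ra had Zcchc2 (0.720) and Zmiz1 (0.662), Il13ra1 had Zfhx3 (0.797) and Zfyve9 (0.786), and Stat6 had Lrch4 (0.715) and Vps37a (0.696). Il5, with 115 UMIs, was too low to be ranked.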

How the data were processed

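Single-cell RNA libraries of 7 white nodules and 7 V(D)J contig tables were used. The deposited values are raw UMI counts per gene and cell, made by the authors with a SeekGene droplet kit, and the submitters' processing notes name GRCm38 and mm10. The aligner is not given in the sources used here, and whether transcripts were read from the 5′ or the 3′ end was not settled. Cells with at least 201 UMIs, at least 101 genes and at most 10% mitochondrial UMIs were kept, then clustered with scanpy 1.11.5 without the 7 genes and the rest of the 72-gene pathway list (38 clusters, 336 sub-clusters). A sub-cluster took a cell type name, written as "-like", from at least 3 markers, and the name basophil-like was kept only with Mcpt8 among its 10 leading genes, a rule set after the clusters were seen. No doublet caller was run, and cells with both T and B cell UMIs were left out as an alternative. Counts were summed per mouse and population (at least 20 cells) and fitted with edgeR 4.0.16 in R 4.3.3 (filterByExpr, TMM, quasi-likelihood, Benjamini-Hochberg adjustment over all genes tested, threshold 0.05), with mouse as a block where both populations came from the same nodules, since same-numbered sums then share 1 animal. DESeq2 1.42.0 was an alternative. Each mouse was 1 sample, and per-cell shares were compared after thinning to 1000 UMIs, which left out 11251 of 75503 cells. Scripts that computed statistics over genes were tested on simulated data. Text names the 7 members in every comparison, the pathway genes past the threshold (up to 20 by size) and, for likeness, the 5 genes of highest Pearson r. Some items that these rules would name are not reported here. The 7 members, the lists and the tests were chosen with earlier results of these data known. Tools also included Python 3.11.15, numpy 2.4.6, scipy 1.17.1 and matplotlib 3.10.9. Promoters and positions came from RefSeq tables of GRCm38.p6.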

Additional observations from a re-analysis of the deposited data

Results flagged for a closer look

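Values of single mice that lay far from the other 4 BCR mice were marked by the gap to the nearest value over the whole range. The mark was a Dixon's ratio above 0.71 for 5 values, which 9 of 17 groups met here. Chance meets that cut-off in about 1 of 20 groups only for independent, normally distributed values. These levels were not transformed and the groups share the same 5 mice, so that rate does not apply here. In 3 of the 9, both those of Il5 and the share in basophil-like cells, the other 4 values were 0, so the ratio is 1 by construction. Il4 in T-like cells was 92.1 CPM in mouse 31, against 1.65 to 26.4 CPM. Il4 in the B clone was 50.6 CPM in mouse 31, against 0.257 to 1.65 CPM. Il4ra in the B clone was 74.6 CPM in mouse 31, against 5.06 to 14.1 CPM. Il13ra1 in the B clone was 81.5 CPM in mouse 33, against 0.227 to 6.84 CPM, and Il13 in the same clone was 1.99 CPM, against 0 to 0.345 CPM. Gata3 in the B clone was 4.36 CPM in mouse 29, against 0.220 to 0.690 CPM. Il5 in T-like cells was 3.39 CPM in mouse 29 and 0 in the others, and Il5 in the B clone was 0.055 CPM in mouse 27, from 1 UMI, and 0 in the others. The share of Il4 UMIs in basophil-like cells was 18.1% in mouse 27, from 1 cell, and 0% in the others. These marks are descriptions of mice that each also differ in organ.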

How the results depend on the processing

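Of the members' fitted values under alternatives, 36 of 50 (T clone against bystander T cells), 83 of 92 (T clones against T-like cells of BCR mice), 63 of 68 (non-clonal T-like cells), 63 of 70 (B clone against T-like cells), 25 of 33 (B clone against other B-like cells) and 36 of 44 (basophil-like cells) kept their direction and their side of the threshold, or lay within the spread. Between T clone and bystander T cells the 20 calls became 211 with DESeq2, 471 without a filter, 112 against Cd4 bystander cells, 0 with clone cells of their own class and 0 without the replicate block. Between T clones and T-like cells of BCR mice the 32 calls became 463 with DESeq2, 521 without a filter and 2 against Cd4 cells, and leaving out single mice gave 0 (without 27, 31, 33 or 34) to 115 (without 29), with 114 without 30 and 1 without 32. For non-clonal T-like cells 0 became 24 with DESeq2 and 0 to 5 without single mice (5 without 29, 1 without 30). The 3548 calls of B clone against T-like cells became 2352 (without 34) to 3068 without single mice and 2686 without the block, where Rora (adjusted p = 0.0556) and Tbx21 (0.0607) no longer passed. The 6 calls of B clone against other B-like cells became 159 with DESeq2, 2 with median-ratio factors, 172 without a filter, 0 without the block, 2 without doublet-like cells, 3 by own class and 7 to 30 without single mice (29 without 29, 30 without 31, 10 without 33). The 892 basophil calls became 398 with DESeq2 and 692 without the block. With classes by marker UMIs the T share of Il4 differed by 47.7 points and the basophil share by 4.07 points (exact permutation p = 0.0476 for each), and with the cluster-based classes the basophil share differed by -2.03 (without mouse 30) to 6.06 points without single mice.

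The following member differences (log2) changed sign. Between T clone and bystander cells Gata3 was 0.00281 without a filter, 0.0683 without the block and 0.15 by own class, and Stat6 was 0.16 against Cd4 cells. Between T clones and T-like cells, leaving out single mice moved Gata3 from -0.51 (without 30) to 1.01, Stat6 from -0.14 (without 30) to 0.0634 (without 32, with 0.0117 and 0.05 without 29 and 31) and Il5 from -5.27 (without 32) to 1.501, and Stat6 was 0.0634 by own class. For non-clonal T-like cells it moved Gata3 from -0.14 (without 30) to 0.955, Il4ra from -0.12 to 1.498, Stat6 from -0.0223 to 0.396 and Il13 from -1.65 to 2.30 (each lowest without 32), and Stat6 was -0.10 with Cd4 cells. Between B clone and other B-like cells it moved Il4ra from -0.45 (without 31) to 1.49, Stat6 from -0.17 (without 29) to 0.29 and Il13ra1 from -1.29 (without 33, and -0.09 without 34) to 1.33, and Stat6 was -0.0393 with DESeq2, -0.0404 with median-ratio factors and -0.18 by marker UMIs, and Il13ra1 -0.44 with DESeq2. For basophil-like cells Il4 was -1.19 and Il1rl1 -1.03 by marker UMIs, and Stat6 -0.19 with DESeq2. The cause was not tested. For T clone against bystander T cells and for basophil-like cells, leaving out a mouse leaves 1 sample per arm, so those are values with no test. No paired analysis was possible because TCR and BCR nodules came from different mice, for the comparisons between them. Thinning to 1000 UMIs gave no Il4ra ratio, since the B clone of mouse 29 then had 0 UMIs. Il5 had 115 UMIs in all cells, too few for a difference to be read in most populations.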
